A study of Mus musculus with 23 samples.

Results

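Transforming growth factor beta (TGF-beta) genes were followed in brain RNA-seq of mice with a variant or WT colony-stimulating factor 1 receptor (CSF1R) that ate inhibitors of that receptor. The 10 genes were named by symbol and comprise the ligands Tgfb1, Tgfb2 and Tgfb3, the receptors Tgfbr1 and Tgfbr2, the activation genes Nrros and Itgb8, and the signalling genes Smad3, Smad7 and Ski. All 10 were among the 22310 named genes of the deposited count table, and all 10 passed the filter on low counts, which left 16209 genes. They were named as 3 genes of microglia (Tgfb1, Tgfbr1 and Nrros), 3 made by other cells (Tgfb2, Tgfb3 and Itgb8) and 4 without such a label.

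Brain tissue came from C57BL/6J mice in 6 groups, each on its chow for 14 days. Csf1R-G793A mice, which carry a substitution in the receptor kinase, ate chow with PLX5622 at 1200 mg/kg (n = 4) or chow with PLX3397 at 290 mg/kg (n = 4). WT mice ate the same PLX5622 chow (n = 4) or PLX3397 chow (n = 4). Csf1R-G793A mice on control chow (n = 4) and WT mice on control chow (n = 3) served as controls. Both compounds inhibit CSF1R, on which microglia and other brain macrophages depend for survival, and the series asks whether the variant receptor resists them. The labels give no brain region, age, sex or sequencing batch. Nor do they say whether the libraries are from separate animals. The p-values therefore describe only how far these libraries scatter, and that scatter may be technical.

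TGF-beta ligands are secreted in a latent form, held by a propeptide that is tethered to a carrier protein. NRROS is such a carrier on microglia and other myeloid cells, and integrins that contain the Itgb8 subunit release the active ligand from it. The active ligand joins the type II receptor (Tgfbr2) to the type I receptor (Tgfbr1), which phosphorylates SMAD proteins. In the mouse brain this pathway is known for keeping microglia in their homeostatic state.

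The label check was Csf1r, the inhibitors' target. Its mean was 71.6 ± 8.59 CPM (counts-per-million, TMM-scaled, mean ± SD, n = 4) in G793A mice on PLX5622 and 74.4 ± 4.24 CPM (n = 4) in G793A mice on PLX3397, against 81.4 ± 4.69 CPM (n = 4) in G793A controls. It was 12.2 ± 4.56 CPM (n = 4) in WT mice on PLX5622 and 23.3 ± 5.12 CPM (n = 4) in WT mice on PLX3397, against 93.8 ± 1.23 CPM (n = 3) in WT controls. Csf1r fell in WT mice with each inhibitor (−2.93 ± 0.21 with PLX5622 and −2.01 ± 0.20 with PLX3397, log2 fold change ± SE). G793A controls (78.5 to 88.4 CPM) lay below WT controls (92.8 to 95.1 CPM), a difference of −0.20 ± 0.19 that did not pass (edgeR adjusted p = 0.729). Total counts per library ran between 26.3 and 48.2 mega-counts. The summed level of 4 cerebellar granule cell genes was 469 CPM in G793A PLX5622 replicate 2 and 91.7 CPM in WT PLX5622 replicate 1, against 22.9 to 35.1 CPM in the other 21 libraries. WT PLX5622 replicate 1 also held 101 CPM of 4 pituitary genes, where the other 22 libraries held 0.828 to 12.2 CPM. The main PLX5622 values are also given without both libraries.

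With either inhibitor, 3 of the 10 genes fell in WT brain: the ligand Tgfb1, its type I receptor Tgfbr1 and its type II receptor Tgfbr2. A gene passed at an adjusted p under 0.05 (edgeR, Benjamini-Hochberg over all genes tested), as 1.66% of all genes did with PLX5622 (1.59% lower) and 1.52% with PLX3397 (1.49% lower). Between 42.9% and 51.4% of the WT control level of Tgfb1 and Tgfbr1 remained, and 73.6% of that of Tgfbr2. Tgfb2, Tgfb3, Itgb8, Smad3, Smad7, Ski and the latency carrier Nrros did not pass the test. In Csf1R-G793A mice 0 of the 10 passed against G793A controls with either inhibitor, as did 0% of all genes with PLX5622 and 0.00617% with PLX3397. The promoters of the 3 genes that fell, and of Nrros, are shown next because these 4 genes separate the response.

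The sequences are the 250 bases before the gene's start in RefSeq (build GRCm38.p6), 5′ to 3′ on the gene's strand. The deposited counts were made on GRCm39, so these positions belong to the RefSeq table alone. Capitals mark matches on either strand to GAGGAA, a purine-rich core bound by ETS factors such as PU.1 of macrophages, or to GTCTG, whose complement CAGAC is bound by SMAD proteins. The motifs do not overlap each other in these windows. Tgfbr1 has a second RefSeq start that is not printed.
Tgfb1 (chr7:25686752-25687001, plus strand): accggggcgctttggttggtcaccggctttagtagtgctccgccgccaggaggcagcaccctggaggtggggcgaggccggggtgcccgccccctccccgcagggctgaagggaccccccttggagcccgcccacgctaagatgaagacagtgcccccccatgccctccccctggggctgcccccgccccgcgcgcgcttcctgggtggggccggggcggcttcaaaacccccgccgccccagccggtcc
Tgfbr1 (chr4:47352972-47353221, plus strand): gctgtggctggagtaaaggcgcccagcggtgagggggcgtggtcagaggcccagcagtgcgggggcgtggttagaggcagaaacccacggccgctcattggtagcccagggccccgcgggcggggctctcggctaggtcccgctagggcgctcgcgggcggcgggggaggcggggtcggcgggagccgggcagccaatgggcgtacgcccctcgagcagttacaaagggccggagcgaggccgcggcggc
Tgfbr2 (chr9:116175364-116175613, minus strand): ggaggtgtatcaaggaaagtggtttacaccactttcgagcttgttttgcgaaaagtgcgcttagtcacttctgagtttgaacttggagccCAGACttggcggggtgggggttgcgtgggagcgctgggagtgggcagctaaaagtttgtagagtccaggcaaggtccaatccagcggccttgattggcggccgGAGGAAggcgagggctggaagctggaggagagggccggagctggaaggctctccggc
Nrros (chr16:32165595-32165844, minus strand): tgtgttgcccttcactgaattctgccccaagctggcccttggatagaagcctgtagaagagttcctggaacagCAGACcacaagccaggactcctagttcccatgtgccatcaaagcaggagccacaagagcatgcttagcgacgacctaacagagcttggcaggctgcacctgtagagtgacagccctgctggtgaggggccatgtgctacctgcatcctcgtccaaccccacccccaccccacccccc
The Tgfbr2 window held 1 match to each motif, and the Nrros window held 1 match to GTCTG only. The Tgfb1 window and the printed Tgfbr1 window held neither. The window of the second Tgfbr1 start held 1 match to each motif, as the Tgfbr2 window did. Of 32851 mouse promoters of this length, 23.3% held GAGGAA, 42.2% held GTCTG and 9.81% held both. RefSeq promoters were matched for 8 of the 10 genes. The matches describe these letters and are not binding sites.

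Tgfb1, the ligand that microglia both make and need, was the least abundant of the 3 ligands per kilobase of transcript in every group. It was measured at 1.96, 2.04, 2.99 and 1.95 CPM in WT mice on PLX5622, against 4.62, 4.43 and 4.48 CPM in WT controls. In WT mice on PLX3397 the libraries held 2.23, 2.33, 1.99 and 1.84 CPM. All 8 libraries of inhibitor-fed WT mice lay below all 3 WT controls. The fall was −1.01 ± 0.15 with PLX5622 (log2 fold change ± SE, edgeR adjusted p = 6.42e-05). This is 49.5% of the WT control mean (95% interval 40.1% to 61.0%). With PLX3397 it was −1.10 ± 0.15 (adjusted p = 2.72e-05), or 46.6% (37.8% to 57.4%). Both comparisons use the same 3 WT control libraries. Between 59.8 and 188 counts per library stood behind Tgfb1, the fewest of the 10 genes.

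Tgfbr1, the kinase that phosphorylates SMAD proteins, had the deepest fall with PLX5622. It was measured at 19.0, 14.9, 15.1 and 15.4 CPM in WT mice on PLX5622 and at 22.9, 19.9, 16.9 and 17.7 CPM in WT mice on PLX3397. WT controls held 38.5, 39.2 and 35.02 CPM, so the groups did not overlap. Tgfbr1 fell by 1.22 ± 0.12 with PLX5622 (adjusted p = 1.95e-07), leaving 42.9% (36.2% to 50.8%). It fell by 0.96 ± 0.12 with PLX3397 (adjusted p = 1.03e-05), leaving 51.4% (43.5% to 60.8%). Without the WT PLX5622 and G793A PLX5622 libraries that held cerebellar transcripts, the PLX5622 changes were −1.31 for Tgfbr1, −0.95 for Tgfb1 and −0.42 for Tgfbr2, and all 3 passed.

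Tgfbr2, the receptor that binds the ligand first and is also made by vascular endothelium, fell less. Its levels were 17.2, 17.9, 17.6 and 20.1 CPM in WT mice on PLX5622 and 18.03, 18.8, 18.4 and 17.6 CPM in WT mice on PLX3397, against 23.9, 23.1 and 27.2 CPM in WT controls. The inhibitor-fed WT libraries again lay below every WT control. The changes were −0.44 ± 0.08 with PLX5622 (adjusted p = 0.00079) and −0.44 ± 0.08 with PLX3397 (adjusted p = 0.000888), or 73.6% of the WT control mean with each. Of 6 endothelial marker genes 0 passed with either inhibitor, and their medians were −0.13 with PLX5622 and −0.11 with PLX3397. Their summed level was 170 to 219 CPM with PLX5622 and 188 to 205 CPM with PLX3397 in WT mice, against 203 to 221 CPM in WT controls. The part of endothelial RNA in the Tgfbr2 change was not tested.

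By ranges alone, 4 of 10 genes lay wholly below and 1 wholly above WT controls with PLX5622, where 8.93% of all genes did not overlap (5.26% lower). The extra pair, Smad3 and Tgfb2, did not pass the test. With PLX3397 the 3 genes that passed were also those that lay apart, where 11.1% of all genes did not overlap (6.12% lower). The median log2 fold change over the 10 genes was −0.18 with PLX5622 and −0.05 with PLX3397, beside a median over all genes of 0.01 for each. In whole tissue, fewer cells of a type and less RNA per cell cannot be told apart.

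Nrros, the myeloid carrier of latent ligand, did not follow its label as a microglial gene. It was measured at 3.94, 3.98, 4.97 and 3.93 CPM in WT mice on PLX5622 and at 4.64, 3.97, 4.73 and 4.33 CPM in WT mice on PLX3397, against 4.74, 5.11 and 4.46 CPM in WT controls. The groups overlapped. Its changes were −0.18 ± 0.13 with PLX5622 (adjusted p = 0.819) and −0.11 ± 0.13 with PLX3397 (adjusted p = 0.889). The intervals on the level that remained were 73.6% to 106% with PLX5622 and 77.4% to 111% with PLX3397, so a fall as deep as that of Tgfb1 lies outside both. In the same libraries 9 of 10 microglia markers fell with each inhibitor, with medians of −3.11 for PLX5622 and −2.18 for PLX3397. The marker that did not pass with either inhibitor was Sall1, whose changes are given below.

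**Figure D1:**
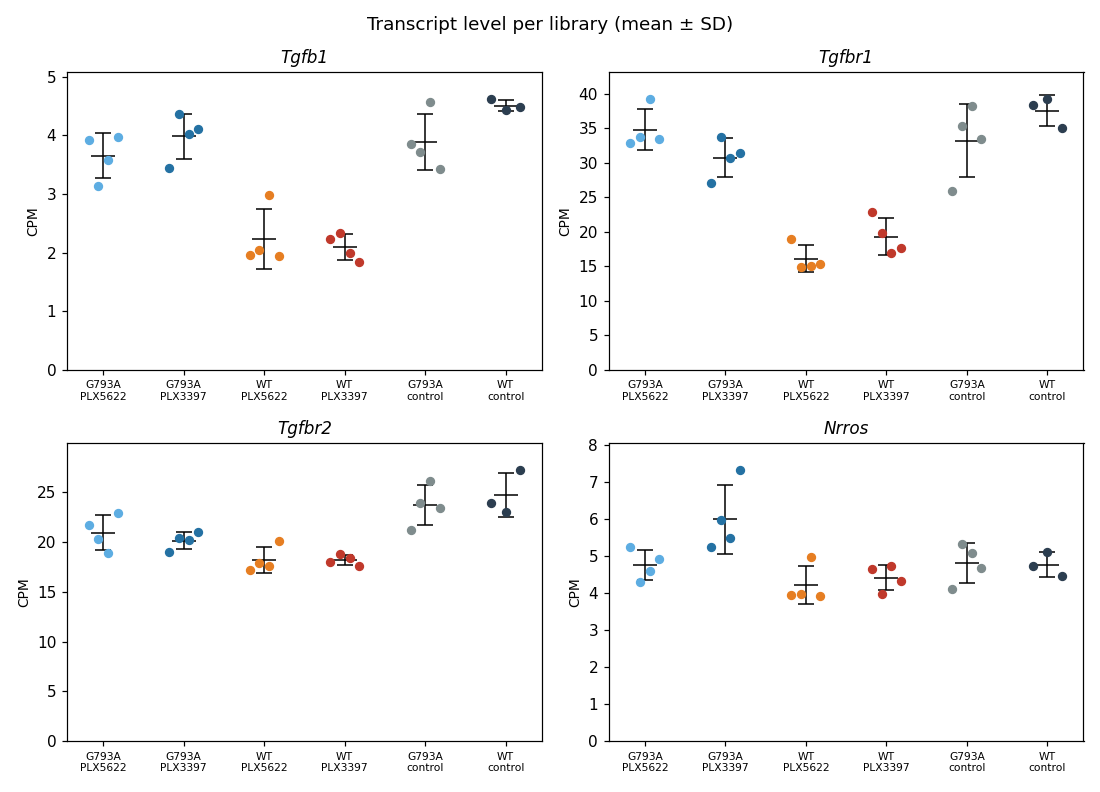
Levels of Tgfb1, Tgfbr1, Tgfbr2 and Nrros in CPM (counts-per-million, y axis from 0) by group, with 1 point per library and the mean ± SD as bars. Tgfb1, Tgfbr1 and Tgfbr2 were lower in WT mice on PLX5622 and PLX3397 than in WT controls without overlap, while Nrros overlapped.

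The ligands and activator that other cells make did not pass in any comparison. Tgfb2, a ligand known from neurons and astrocytes, was measured at 21.3, 21.7, 21.0 and 22.6 CPM in WT mice on PLX5622 and 16.8, 21.1, 17.5 and 26.2 CPM in WT mice on PLX3397, against 16.1, 20.7 and 20.3 CPM in WT controls. Its changes were 0.18 ± 0.14 with PLX5622 and 0.10 ± 0.14 with PLX3397. The PLX5622 libraries all lay above the controls, though the lowest exceeded the highest control by less than the controls' own SD of 2.54 CPM. Tgfb3, the third ligand, had 13.4, 11.8, 11.3 and 11.3 CPM in WT mice on PLX5622 and 11.5, 12.9, 12.6 and 11.004 CPM in WT mice on PLX3397, against 12.1, 14.5 and 14.5 CPM in WT controls. These ranges overlapped. Its changes of −0.20 ± 0.08 with PLX5622 (adjusted p = 0.406) and −0.19 ± 0.08 with PLX3397 (adjusted p = 0.446) did not pass after adjustment over all genes.

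Itgb8 encodes the integrin subunit that releases active ligand and varied little between libraries. It held 108 to 124 CPM in WT mice on PLX5622 and 108 to 118 CPM in WT mice on PLX3397, against 107 to 116 CPM in WT controls. Its changes were 0.06 ± 0.06 with PLX5622 (95% interval −0.08 to 0.19) and 0.00 ± 0.06 with PLX3397 (−0.13 to 0.14). The intervals leave at most a change of 0.19 in size on the log2 scale.

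The signalling genes showed no change that passed. Smad3, a SMAD protein that the receptors phosphorylate, held 61.3 to 68.0 CPM in WT mice on PLX5622 and 60.3 to 87.1 CPM in WT mice on PLX3397, against 69.1 to 75.9 CPM in WT controls. Its changes were −0.17 ± 0.11 and 0.01 ± 0.11, with PLX5622 and PLX3397 in that order. Smad7, a SMAD protein that TGF-beta induces and that inhibits the receptors, held 26.2 to 30.3 CPM with PLX5622 and 24.8 to 32.9 CPM with PLX3397, against 26.7 to 29.9 CPM in WT controls (changes of 0.01 ± 0.09 and 0.05 ± 0.09). Ski, a corepressor that binds SMAD proteins, held 131 to 145 CPM with PLX5622 and 135 to 150 CPM with PLX3397, against 130 to 144 CPM in WT controls (changes of −0.01 ± 0.06 and 0.03 ± 0.06).

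**Figure D2:**
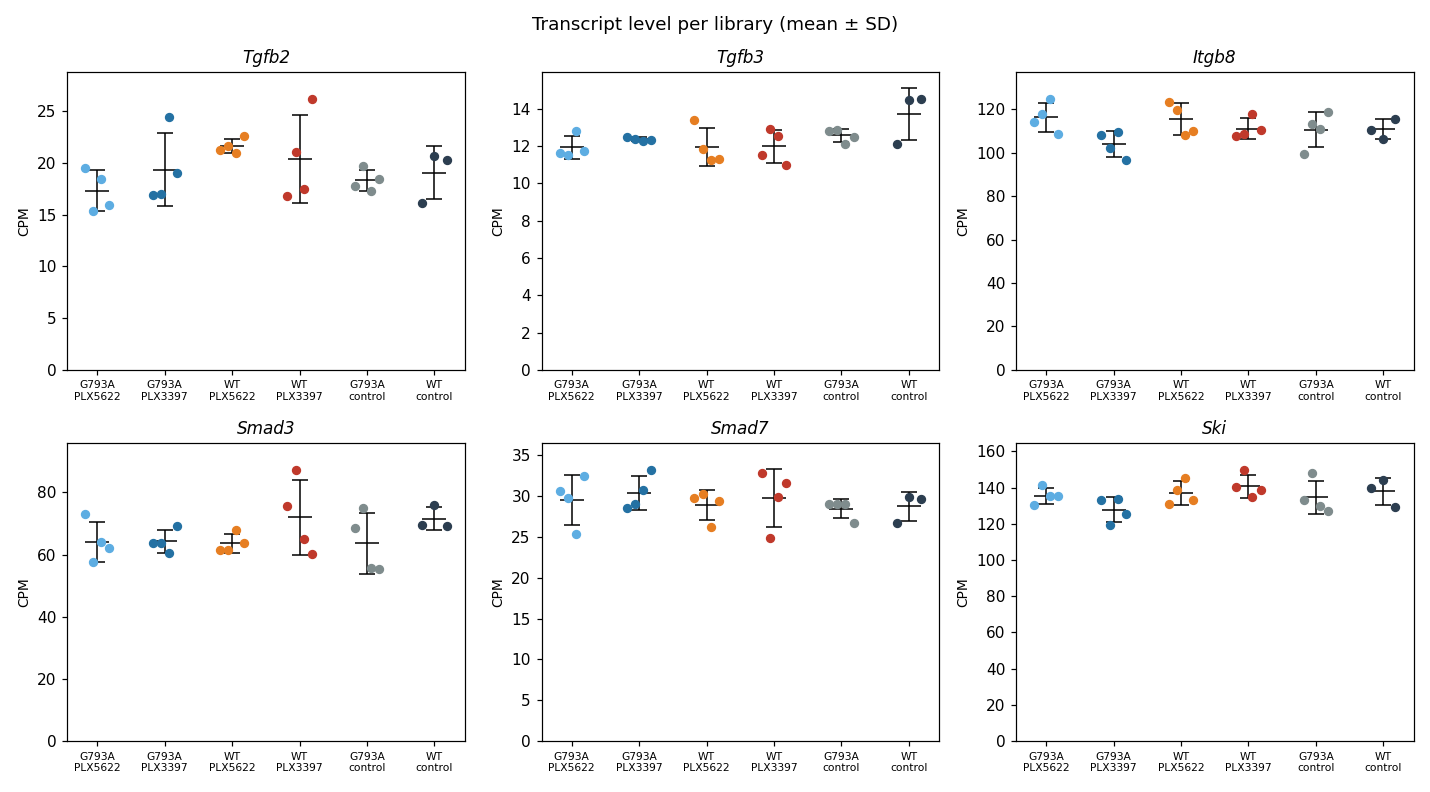
Levels of Tgfb2, Tgfb3, Itgb8, Smad3, Smad7 and Ski in CPM (y axis from 0) by group, with 1 point per library and the mean ± SD as bars. No gene shown passed the test in any comparison, and the WT PLX5622 range lay apart from WT controls for Tgfb2, which was higher, and Smad3, which was lower.

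Csf1R-G793A mice on control chow were compared with WT controls to see what the variant alone did. None of the 10 genes passed in edgeR, DESeq2 or limma-voom, and 0 of them reached 0.05 before adjustment. Of all 16209 genes 0 passed (0%) with each of these tools, and 1803 had an unadjusted p under 0.05 in edgeR. The ranges of all 10 genes overlapped, where 5.63% of all genes did not. Leaving out G793A control replicate 2 raised edgeR's count to 375 genes, with none of the 10 among them. Tgfb1 held 3.85, 3.72, 4.56 and 3.42 CPM in G793A controls, against the WT control values above, and differed by −0.22 ± 0.14 (adjusted p = 0.574). Tgfbr1 held 25.9, 35.3, 38.3 and 33.5 CPM in G793A controls and differed by −0.18 ± 0.12 (adjusted p = 0.575). Tgfbr2 (−0.06 ± 0.08) and Nrros (0.01 ± 0.13) differed less.

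In Csf1R-G793A mice the inhibitors left Tgfb1 and Tgfbr1 near the level of G793A controls. Tgfb1 held 3.92, 3.13, 3.59 and 3.97 CPM with PLX5622 and 3.45, 4.36, 4.02 and 4.12 CPM with PLX3397, which overlapped the G793A controls. Its changes against G793A controls were −0.09 ± 0.13 with PLX5622 (95% interval −0.36 to 0.19) and 0.04 ± 0.13 with PLX3397 (−0.23 to 0.31). Tgfbr1 held 32.9, 33.7, 39.3 and 33.4 CPM with PLX5622 and 27.05, 33.8, 30.7 and 31.5 CPM with PLX3397. Its changes were 0.07 ± 0.11 with PLX5622 (−0.16 to 0.29) and −0.11 ± 0.11 with PLX3397 (−0.33 to 0.11). Without both cerebellar libraries the PLX5622 changes were −0.02 for Tgfb1, 0.08 for Tgfbr1 and −0.16 for Tgfbr2.

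In G793A mice Tgfbr2 was the 1 gene of the 10 with an unadjusted p under 0.05 on PLX5622, and Tgfbr2 and Nrros were the 2 on PLX3397. Of all 16209 genes, 2639 had such a p in edgeR on PLX5622 and 1899 on PLX3397. The counts of 1 and 2 are thus near the rate over all genes. Tgfbr2 held 21.7, 20.3, 18.9 and 22.9 CPM in G793A mice on PLX5622 and 19.0, 20.4, 20.2 and 21.0 CPM in G793A mice on PLX3397, against 21.2, 24.0, 26.2 and 23.5 CPM in G793A controls. The PLX3397 libraries lay below every G793A control, where 4.04% of all genes did not overlap. The differences were −0.17 ± 0.07 with PLX5622 (adjusted p = 0.228) and −0.23 ± 0.07 with PLX3397 (adjusted p = 0.338), and neither passed. Macrophage markers were lower beside them, although none passed: with PLX3397 all 10 microglia markers (median −0.26) and all 7 border-associated macrophage markers (median −0.48) had negative changes, and with PLX5622 again all 10 (median −0.21) and all 7 (median −0.30). The median over all genes was 0.003 with PLX3397 and −0.0004 with PLX5622. Border-associated macrophage genes summed to 15.3 to 19.7 CPM with PLX5622 and 16.2 to 18.7 CPM with PLX3397, against 21.0 to 24.7 CPM in G793A controls, without overlap. For such sums no share over all genes was taken. Microglia markers summed to 206 to 260 CPM with PLX5622 and 223 to 266 CPM with PLX3397, against 252 to 308 CPM in G793A controls, with overlap. Most vascular markers also had negative changes, and none passed. With PLX5622 these were all 6 endothelial markers (median −0.14) and all 5 pericyte markers (median −0.14). With PLX3397 they were 5 of 6 endothelial markers (median −0.10) and 4 of 5 pericyte markers (median −0.03). The part of any of these cells in the Tgfbr2 difference was not tested. Nrros held 5.24, 4.28, 4.59 and 4.93 CPM with PLX5622 and 5.23, 5.96, 5.48 and 7.32 CPM with PLX3397, against 4.10, 5.33, 5.09 and 4.67 CPM in G793A controls. Its difference was −0.01 ± 0.12 with PLX5622 and 0.32 ± 0.12 with PLX3397 (adjusted p = 0.364). Without the library at 7.32 CPM, the PLX3397 difference was 0.21. That library, replicate 4, also had the highest sum of 6 immediate early genes, 2019 CPM, where the other 22 libraries held 281 to 1582 CPM, and the link was not tested.

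Of all genes, 0 passed in G793A mice on PLX5622 and 1 on PLX3397 (0.00617%) against G793A controls. At an unadjusted p under 0.05 there were 2639 and 1899 genes, with 1 and 2 of the 10 among them. DESeq2 called 313 genes for PLX5622 and 28 for PLX3397, and none of the 10. Leaving out G793A control replicate 2 raised edgeR's counts to 980 and 23 genes, still with none of the 10. Set against WT controls, G793A mice on PLX5622 had 0 genes past the threshold (1095 at an unadjusted p under 0.05, 8 in DESeq2) and those on PLX3397 had 1 (0.00617%), in both cases none of the 10. Leaving out single libraries gave 0 to 1 gene and 0 to 4 genes in these comparisons. Tgfbr2 differed from WT controls by −0.24 ± 0.08 with PLX5622 (adjusted p = 0.583) and −0.30 ± 0.08 with PLX3397 (adjusted p = 0.383), Tgfb1 by −0.30 ± 0.14 and −0.18 ± 0.14, and Tgfbr1 by −0.11 ± 0.12 and −0.29 ± 0.12, in the same order of diets. The ranges of Tgfb1 and Tgfbr2 lay below WT controls in both groups, where 7.25% of all genes did not overlap with PLX5622 and 7.63% with PLX3397. With PLX3397, Tgfbr1 also lay below WT controls and Nrros above them.

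The difference between the genotypes was tested as an interaction: a gene's log2 change in G793A mice less its log2 change in WT mice. With PLX5622, Tgfbr1 changed by 0.07 in G793A mice and by −1.22 in WT mice, a difference of 1.29 ± 0.16 (adjusted p = 2.81e-05). Tgfb1 changed by −0.09 in G793A mice and by −1.01 in WT mice, a difference of 0.93 ± 0.20 (adjusted p = 0.0147). With PLX3397, Tgfb1 changed by 0.04 in G793A mice and by −1.10 in WT mice, a difference of 1.14 ± 0.20 (adjusted p = 0.00246). Tgfbr1 changed by −0.11 in G793A mice and by −0.96 in WT mice, a difference of 0.85 ± 0.16 (adjusted p = 0.00623). These 2 of 10 genes passed in each test, where 0.808% of all genes passed for PLX5622 and 0.555% for PLX3397. In limma on the authors' variance-stabilised values the Tgfb1 interactions did not pass. Without both cerebellar libraries the PLX5622 differences were 0.93 for Tgfb1 (edgeR adjusted p = 0.0256) and 1.40 for Tgfbr1 (adjusted p = 2.56e-05).

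Tgfbr2 passed in WT mice and not in G793A mice, and its own interaction did not pass. The difference was 0.27 ± 0.10 with PLX5622 (95% interval 0.05 to 0.48, adjusted p = 0.564) and 0.21 ± 0.10 with PLX3397 (−0.01 to 0.43, adjusted p = 0.99965). A genotype difference in the Tgfbr2 response is therefore not shown. For Nrros the difference was 0.17 ± 0.17 with PLX5622 (adjusted p = 0.82) and 0.42 ± 0.17 with PLX3397 (adjusted p = 0.972).

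**Figure D3:**
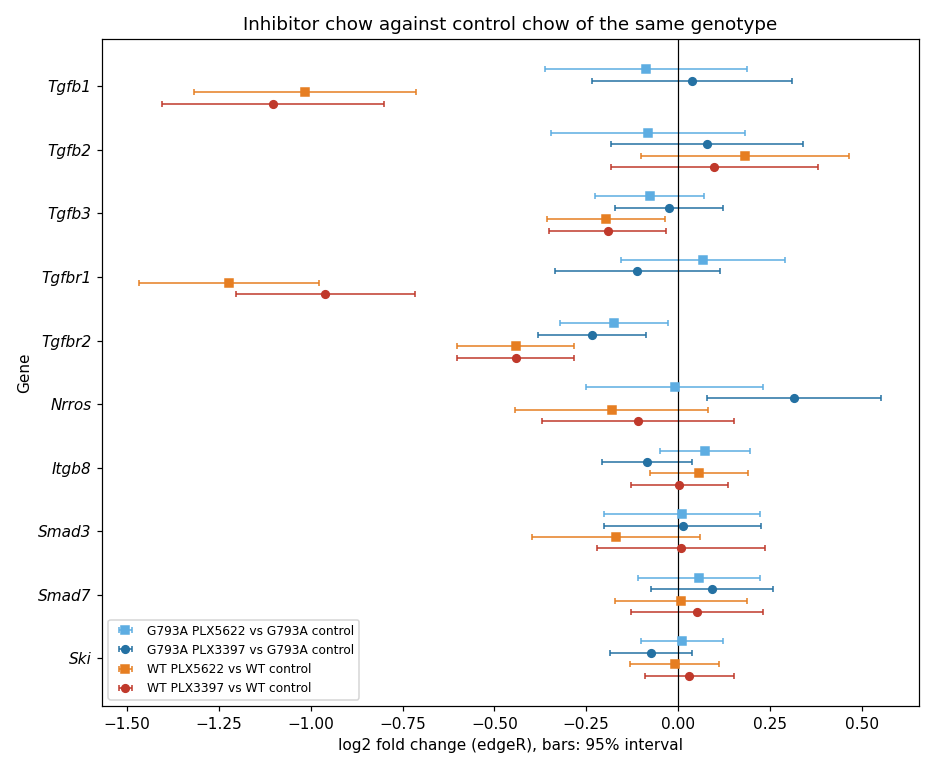
Log2 fold changes (x axis) of the 10 genes for each inhibitor chow against control chow of the same genotype, with 95% intervals from edgeR. The WT points of Tgfb1 and Tgfbr1 lie between −1.22 and −0.96 and their G793A points between −0.11 and 0.07, while the Tgfbr2 points of the genotypes lie closer together.

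The inhibitors were also set side by side, at doses that differ. PLX5622 against PLX3397 gave no gene of the 10 past the threshold in either genotype. In WT mice 0 genes of all passed in edgeR (664 at an unadjusted p under 0.05, 14 in DESeq2), and in G793A mice 1 passed (0.00617%). Tgfbr1 averaged 16.1 ± 1.96 CPM with PLX5622 and 19.3 ± 2.67 CPM with PLX3397 in WT mice (SD, n = 4 each), a difference of −0.26 ± 0.11 (95% interval −0.50 to −0.03, unadjusted p = 0.0294 in edgeR, not past the threshold after adjustment), and −0.35 without both cerebellar libraries. Tgfb1 averaged 2.23 ± 0.51 CPM with PLX5622 and 2.10 ± 0.23 CPM with PLX3397 (difference 0.09, interval −0.21 to 0.38). Tgfbr2 averaged 18.2 ± 1.29 CPM with PLX5622 and 18.2 ± 0.53 CPM with PLX3397 (interval −0.15 to 0.15). In G793A mice Nrros differed by −0.32 ± 0.12 (interval −0.56 to −0.09) and Itgb8 by 0.16 ± 0.06 (0.04 to 0.28), both with an adjusted p of 0.686.

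The falls of Tgfb1, Tgfbr1 and Tgfbr2 were smaller than the mean fall of 9 microglia markers. Each gene's log2 CPM was taken relative to the mean of 9 markers (the 10 without Csf1r). Tgfb1 relative to the markers was −0.35 ± 0.64 in WT mice on PLX5622 (SD, n = 4) and −2.23 ± 0.05 in WT controls (n = 3), a difference of 1.88 (two-sided exact permutation p = 0.0286). With PLX3397 it was −1.25 ± 0.14 (n = 4), a difference of 0.98 (exact p = 0.0286). Tgfbr1 differed in the same measure by 1.67 with PLX5622 and 1.10 with PLX3397, Tgfbr2 by 2.46 and 1.63, and Nrros by 2.71 and 1.96 (exact p = 0.0286 for each). This p is the smallest that 4 against 3 libraries allow, is not adjusted for the 8 tests, and rises to 0.0571 for Tgfb1 with PLX5622 when the markers' median is used. The measure subtracts markers already shown to fall, from a list chosen with earlier results of these data known. This p therefore adds no separate evidence for Tgfb1, Tgfbr1, Tgfbr2 or Nrros. Without WT PLX5622 replicate 1, the library with cerebellar transcripts, the PLX5622 differences were 2.12 for Tgfb1, 1.77 for Tgfbr1, 2.67 for Tgfbr2 and 2.93 for Nrros (exact p = 0.1 for each, the smallest that 3 against 3 allow).

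In the PLX5622 group the markers varied more between libraries than Tgfb1 did. Their mean was 2.09, 0.65, 1.77 and 1.58 log2 CPM in WT mice on PLX5622, against 4.46, 4.44 and 4.36 in WT controls. Tgfb1 in the same 4 libraries was 1.01, 1.07, 1.61 and 1.00 log2 CPM. Replicate 2, the library with the least marker RNA, held 59.8 counts of Tgfb1, beside 70.9 in replicate 1 and 67.9 in replicate 4. Counts this low cannot rank Tgfb1 among these libraries. With PLX3397 the marker mean was 2.57, 2.57, 2.30 and 1.97 and Tgfb1 was 1.19, 1.258, 1.03 and 0.92, in the same order of libraries.

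**Figure D4:**
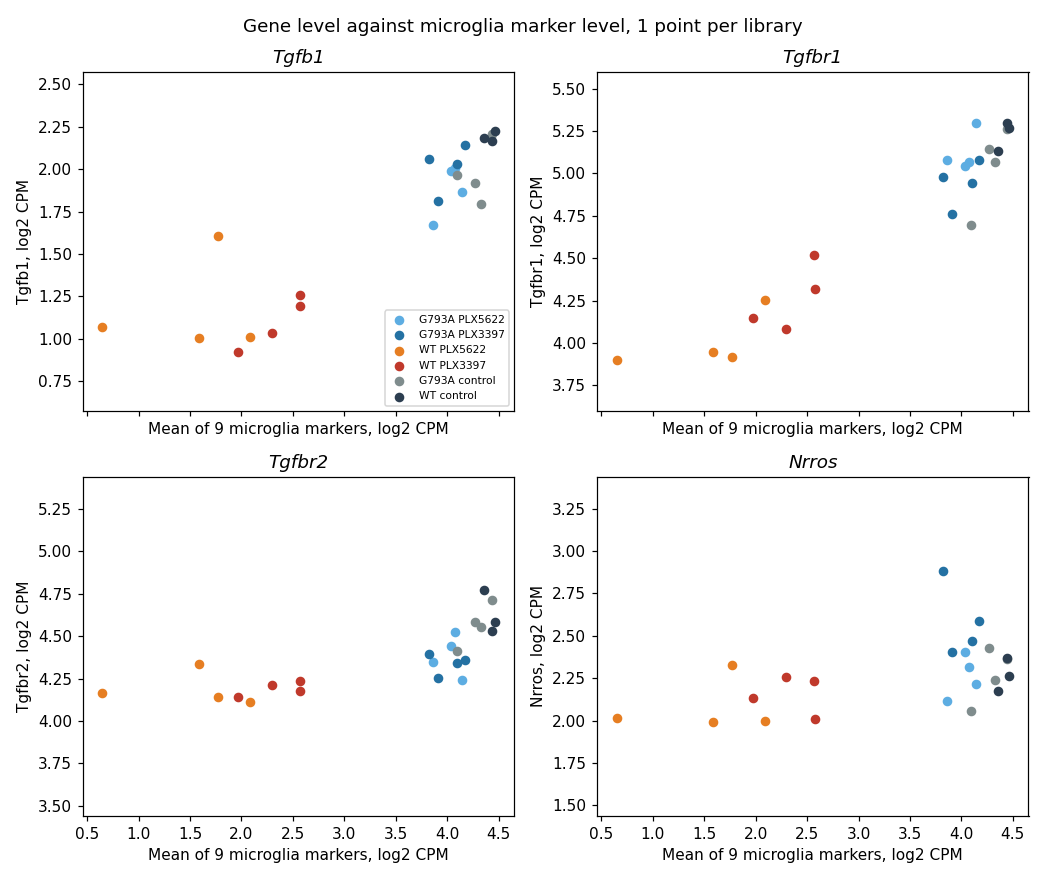
Level of Tgfb1, Tgfbr1, Tgfbr2 and Nrros (y axis, log2 CPM, each panel spanning 2 units) against the mean of 9 microglia markers (x axis, log2 CPM), with 1 point per library. The WT PLX5622 and WT PLX3397 libraries lie at marker means of 0.65 to 2.57 and the others at 3.82 to 4.46, and Nrros spans 1.99 to 2.33 in those WT libraries and 2.05 to 2.88 in the others.

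Between genes, levels were compared per kilobase of the longest protein-coding transcript in GENCODE vM21. In WT controls Ski stood highest at 25.0 ± 1.38 CPM per kb (SD, n = 3), then Smad3 at 14.1 ± 0.75 and Itgb8 at 13.2 ± 0.55, whose ranges over mean ± SD overlapped. Smad7 at 6.71 ± 0.41 and Tgfbr1 at 6.53 ± 0.39 did not differ beyond their SD, nor did Tgfb3 at 4.05 ± 0.41 and Tgfb2 at 3.72 ± 0.50. Tgfbr2 at 3.06 ± 0.27 overlapped Tgfb2 by the same measure. Tgfb1 followed at 2.07 ± 0.05, and Nrros was lowest at 1.33 ± 0.09 CPM per kb. Transcript choice sets this scale and part of the order. With median transcript lengths Smad3 stood highest at 118 ± 6.29 CPM per kb, above Ski at 25.5 ± 1.41, and Smad7 at 21.5 ± 1.32 and Tgfbr1 at 16.02 ± 0.96 stood above Itgb8 at 13.2 ± 0.55. Tgfb1 at 2.07 ± 0.05 and Nrros at 1.93 ± 0.13 were then lowest and overlapped.

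On the per-kilobase scale the balance of ligands differed between groups. Tgfb1 made up 11.7% ± 2.64 of the 3 ligands' summed level in WT mice on PLX5622 (SD, n = 4) and 11.4% ± 1.70 in WT mice on PLX3397 (n = 4), against 21.2% ± 2.44 in WT controls (n = 3). Single libraries ran from 9.96% to 15.6% with PLX5622 and from 9.17% to 13.3% with PLX3397, against 19.6% to 24.0% in WT controls, without overlap. In G793A mice the share was 19.5% ± 1.61 with PLX5622 and 19.8% ± 1.96 with PLX3397, against 19.7% ± 2.45 in G793A controls (n = 4 each). The receptor ratio, log2 of Tgfbr1 over Tgfbr2 per kilobase, moved in WT mice too. It was 0.31 ± 0.23 with PLX5622 and 0.57 ± 0.20 with PLX3397 there, against 1.10 ± 0.21 in WT controls. In G793A mice the ratio was 1.23 ± 0.23 with PLX5622 and 1.10 ± 0.09 with PLX3397, against 0.97 ± 0.13 in G793A controls. Without both cerebellar libraries the Tgfb1 share with PLX5622 was 19.9% ± 1.72 in G793A mice and 12.3% ± 2.91 in WT mice (n = 3 each), and the receptor ratio with PLX5622 in WT mice was 0.20 ± 0.09. No test was made on shares or ratios.

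**Figure D5:**
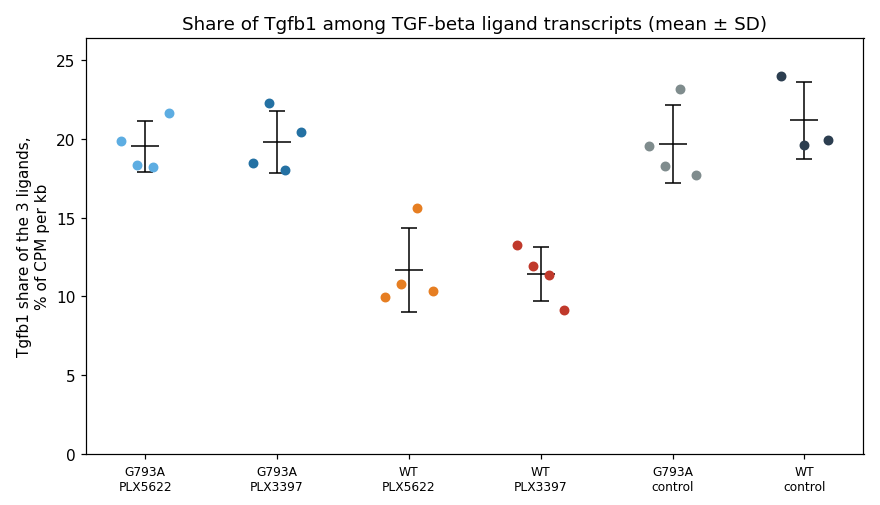
Share of Tgfb1 in the summed level of Tgfb1, Tgfb2 and Tgfb3 (y axis, % of CPM per kb, from 0) by group, with 1 point per library and the mean ± SD as bars. WT mice on PLX5622 and PLX3397 lie between 9.17% and 15.6%, and all other libraries between 17.7% and 24.0%.

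Other genes of the pathway were counted by list. Of 13 tested genes of latency and activation, 1 fell in WT mice with each inhibitor. It was Itgb5, an integrin beta subunit that pairs with the alpha subunit Itgav to bind latent TGF-beta. Itgb5 averaged 28.5 ± 3.39 CPM with PLX5622 and 28.6 ± 1.56 CPM with PLX3397 in WT mice (n = 4 each), against 45.2 ± 1.42 CPM in WT controls (n = 3). It fell by 0.66 ± 0.09 with each (adjusted p = 4.04e-05 for PLX5622 and 5.54e-05 for PLX3397). In G793A mice Itgb5 differed from G793A controls by −0.30 ± 0.09 with PLX5622 (adjusted p = 0.154) and −0.19 ± 0.09 with PLX3397 (adjusted p = 0.393). None of the 13 genes passed in either interaction, so a genotype difference in the Itgb5 response is not shown.

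Itgav, the partner shared by Itgb5 and Itgb8, had changes of 0.00 with both inhibitors in WT mice. None of 8 other receptor and coreceptor genes passed in WT mice (medians 0.01 with PLX5622 and 0.04 with PLX3397), nor did any of 14 signal transducers and regulators (0.02 and 0.02) or 17 genes of the BMP and activin branches (−0.02 and −0.06). None of 12 genes that TGF-beta is known to induce passed either (medians −0.09 with PLX5622 and 0.02 with PLX3397). Tgfbi, an induced matrix protein gene, differed by −0.44 ± 0.19 with PLX5622 (adjusted p = 0.498) and −0.44 ± 0.19 with PLX3397 (adjusted p = 0.506).

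Genes whose expression in microglia is known to depend on TGF-beta signalling were counted too. Of 12 such genes 9 fell with each inhibitor (medians −2.50 with PLX5622 and −2.06 with PLX3397), and 7 of the 12 are also among the 10 microglia markers, so the counts are not separate evidence. Siglech, a microglial lectin, fell by 3.31 ± 0.19 with PLX5622 (adjusted p = 5.11e-11) and by 2.54 ± 0.18 with PLX3397 (adjusted p = 4.05e-09). P2ry12, the receptor by which microglial processes sense ADP, fell by 3.46 ± 0.20 and 2.59 ± 0.19, in the same order. Gpr34, a lysophosphatidylserine receptor gene, fell by 3.09 ± 0.25 and 2.20 ± 0.23, and Tmem119, a microglial membrane protein gene, by 2.67 ± 0.21 and 2.16 ± 0.21. Fcrls, a microglial Fc receptor-like gene, fell by 3.60 ± 0.29 and 2.29 ± 0.26, and Olfml3, a secreted glycoprotein gene, by 1.68 ± 0.15 and 1.58 ± 0.15.

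The other 3 of the 12 did not pass. Sall1, a transcription factor that TGF-beta sustains in microglia, differed by −0.42 ± 0.18 with PLX5622 (adjusted p = 0.489) and −0.41 ± 0.18 with PLX3397 (adjusted p = 0.523). It is also the microglia marker that did not pass. Mertk, a phagocytic receptor gene, differed by −0.06 ± 0.17 and 0.06 ± 0.17, and its ligand gene Pros1 by −0.31 ± 0.10 and −0.34 ± 0.10. In G793A mice 0 of the 12 passed against G793A controls with either inhibitor (medians −0.24 with PLX5622 and −0.23 with PLX3397).

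Other cell types were read beside these results. Border-associated macrophage genes summed to 5.04 to 6.28 CPM with PLX5622 and 5.01 to 6.81 CPM with PLX3397 in WT mice, against 25.2 to 29.2 CPM in WT controls, and 5 and 6 of 7 fell. They moved with Tgfb1, Tgfbr1 and Tgfbr2, and their part in those falls was not tested. The 6 monocyte and neutrophil genes summed to 0.975 to 9.12 CPM with PLX5622 and 2.32 to 10.02 CPM with PLX3397 in WT mice, against 0.842 to 1.38 CPM in WT controls, and 0 of 5 tested passed. Their part in the Nrros level was not tested. Of 7 astrocyte, 6 oligodendrocyte, 6 oligodendrocyte precursor, 5 pericyte, 5 fibroblast and leptomeningeal, and 7 neuron genes 0 passed with either inhibitor in WT mice.

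Some other lists also moved in WT mice on PLX3397. Red blood cell genes summed to 98.8 to 298 CPM with PLX5622 and 37.2 to 100 CPM with PLX3397 in WT mice, against 173 to 306 CPM in WT controls. With PLX3397 their median change was −1.97 and 1 of 5 passed, the alpha-globin gene Hba-a2 (edgeR adjusted p = 0.0464), which was named after its value was seen. Oligodendrocyte precursor genes summed to 204 to 235 CPM with PLX5622 and 187 to 197 CPM with PLX3397, against 216 to 243 CPM in WT controls, so the PLX3397 libraries lay below the controls (median change −0.24). All 6 immediate early genes had positive changes with PLX3397 (median 1.25), and 0 passed; they summed to 696 to 1582 CPM with PLX3397, against 446 to 905 CPM in WT controls. Fibroblast and leptomeningeal genes summed to 66.6 to 273 CPM with PLX3397, against 61.0 to 94.3 CPM in WT controls. The highest value came from replicate 1, and the next library held 119 CPM. Against G793A controls, oligodendrocyte precursor genes in G793A mice on PLX3397 had a median change of −0.22, and 1 of 6 passed. Tgfb1, Tgfbr1 and Tgfbr2 did not pass there. The Tgfbr2 range there lay below G793A controls, where 4.04% of all genes did not overlap. All 6 immediate early genes were again positive in that comparison (median 1.42), and 0 passed. Red blood cell genes had a median of −0.90 there and fibroblast and leptomeningeal genes a median of −0.14, and 0 passed. The part of these lists in the falls of Tgfb1, Tgfbr1 and Tgfbr2 was not tested.

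The genes with the most similar profile were found by the root mean square difference, over 23 libraries, of log2 CPM centred on WT controls, among 13953 genes at a mean of 1 CPM or more. For Tgfb1 they included Slco2b1 (0.15), Inpp5d (0.20) and Mfng (0.22). For Tgfbr1 they were Lyn (0.18), Il6ra (0.20), Tnfrsf1b (0.20) and Apbb1ip (0.20). Slco2b1 lay at −1.16 and Lyn at −1.21 relative to WT controls in WT mice on PLX5622, and at −1.24 and −1.08 on PLX3397. The neighbours of Tgfbr2 were Pald1, Itpripl2, Scamp2 and Dab2 (0.10 to 0.12).

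Nrros had other neighbours than Tgfb1 and Tgfbr1: Ptbp1 (0.15), N4bp3 (0.16), Gask1a (0.16) and Lsp1 (0.16), which lay between −0.15 and −0.07 on PLX5622 and between −0.18 and 0.01 on PLX3397. The neighbours of Tgfb2 were Kctd4, Dock4, Nrip3 and Nt5dc3 (0.13 to 0.14), those of Tgfb3 were Lims1, Eif4ebp2, Rngtt and Tspan14 (0.08 to 0.10), and those of Itgb8 were Tfdp2, Fbxw11, Gdap1 and Rab39b (0.06 to 0.07). For genes that vary little, this measure mostly finds other genes that vary little.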

How the data were processed

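RNA was sequenced from 23 brain libraries in 6 groups, assigned from the labels (RNeasy extraction, TruSeq Stranded mRNA libraries with oligo-dT selection, NovaSeq, per the labels' protocols). Per the submitters' processing notes the tools were FastQC 0.11.9, kallisto 0.46.1 and DESeq2 1.26.0 with build GRCm39; how transcripts were summed to genes was not given in the sources used here. Values in the deposited table are the authors' estimated counts (expected counts) per gene symbol, 45.3% of them not whole. Its 1 blank entry (0.00828% to 0.0151% of counts) was left out. The authors' deposited log2 variance-stabilised values were used only as an alternative.

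Rounded counts went into edgeR 4.0.16 (R 4.3.3) with TMM scaling and filterByExpr (minimum count 10, minimum total 15). A robust quasi-likelihood model covered all libraries, 1 coefficient for each group. All tests are two-sided, with Benjamini-Hochberg adjustment over 16209 genes and a threshold of 0.05. SE is the fold change over the root of F. CPM are TMM-scaled. Log2 CPM used a prior count of 2. Total counts were 26.3 to 48.2 mega-counts per library, and intervals cover the spread between libraries. The chi-square between replicates, per degree of freedom, was 6.06 to 76.3, so no 2 libraries of a group agree within sampling noise.

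The 10 genes and all lists were chosen with earlier results of these data known. By rule, the text names all 10 genes in each comparison, Csf1r, up to 6 genes past the threshold per pathway list, by adjusted p, and 4 nearest profiles for each of 7 genes; some genes that this rule names are not reported here. Tgfbi, Itgav and the listed genes that did not pass were named after their values were seen. Alternatives were RLE scaling, filtering at a mean of 1 CPM or not at all, DESeq2 1.42.0, limma-voom (limma 3.58.1), a replicate block, fits of only the groups compared, the markers' median and leaving out each library. Limma on the variance-stabilised values, leaving out 2 libraries with cerebellar transcripts and median transcript lengths (for the levels per kilobase too) were chosen after seeing the data.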

Additional observations from a re-analysis of the deposited data

Results flagged for a closer look

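In WT mice on PLX5622, replicate 3 stood apart from its group in 2 genes. Its Tgfb1 level of 2.99 CPM lay above the other 3 libraries (1.95 to 2.04 CPM), and its Nrros level of 4.97 CPM lay above the others (3.93 to 3.98 CPM). Without it, the Tgfb1 change with PLX5622 was −1.19 and the Nrros change −0.27. Replicate 1 of that group stood apart in Tgfbr1, at 19.0 CPM beside 14.9 to 15.4 CPM, and this is a library with cerebellar and pituitary transcripts. Without it the Tgfbr1 change was −1.31. In G793A mice on PLX5622, replicate 3 had 39.3 CPM of Tgfbr1 beside 32.9 to 33.7 CPM. In G793A controls, replicate 4 had 26.7 CPM of Smad7 beside 29.0 to 29.1 CPM. A gap of this size to the nearest library was found in 5 of the 50 sets of 4 libraries, where chance gives about 1 in 20.

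The response differed between genotypes for Tgfb1 and Tgfbr1 by the interaction test. The differences, G793A minus WT on the log2 scale, were 0.93 for Tgfb1 and 1.29 for Tgfbr1 with PLX5622, and 1.14 for Tgfb1 and 0.85 for Tgfbr1 with PLX3397.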

How the results depend on the processing

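The 10 member changes that passed were recomputed 192 times, and 190 values kept their direction and their side of the threshold. The 2 that did not are the Tgfb1 interactions in limma on the variance-stabilised values (0.32 with PLX5622, adjusted p = 0.186, and 0.37 with PLX3397, adjusted p = 0.105), where 1 of the 10 genes passed in each interaction and 57 genes in all for PLX3397. Variance-stabilised values compress differences at low counts, and the part of this in the 2 lost calls was not tested. Without WT control replicate 1 the Tgfb1 interaction with PLX5622 had an adjusted p of 0.0495 in edgeR. Of the member changes that did not pass, 40 changed sign under some alternative (139 values between −0.15 and 0.12) and none passed. The Tgfb1 share of ligands with median transcript lengths stayed within 1 SD in each group.

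The log2 changes of genes that did not pass, where an alternative turned their sign, were these. For WT PLX5622 against WT controls, Smad7 was −0.048 on variance-stabilised values, Smad7 −0.013 and Ski 0.0037 with the replicate block, and Smad7 −0.0071 and Ski 0.011 without both cerebellar libraries. Smad7 lay at −0.042 to 0.053 and Ski −0.053 to 0.025 with 1 library left out. For WT PLX3397 against WT controls, Smad3 was −0.011 on variance-stabilised values, Itgb8 −0.0025 without a filter, Itgb8 −0.0033 with the 1 CPM filter, Smad3 −0.0051 in limma-voom, and Itgb8 −0.0042 in the compared groups alone. Tgfb2 lay at −0.045 to 0.17, Itgb8 −0.026 to 0.036, Smad3 −0.098 to 0.084, Ski −0.013 to 0.065 and Smad7 −0.0068 to 0.13 with 1 library left out. For G793A controls against WT controls, Nrros was −0.0085 and Smad7 0.027 on variance-stabilised values, Itgb8 0.00030 without a filter, Itgb8 0.00095 with the 1 CPM filter, and Nrros −0.0042 and Itgb8 0.0088 with the replicate block. Tgfb2 lay at −0.16 to 0.0068, Smad7 −0.065 to 0.014, Tgfbr2 −0.11 to 0.012, Nrros −0.048 to 0.087 and Itgb8 −0.040 to 0.052 with 1 library left out. For G793A PLX5622 against WT controls, Smad7 was −0.13 on variance-stabilised values, and Nrros −0.012 with the replicate block. Nrros lay at −0.049 to 0.053, Smad7 −0.0086 to 0.11 and Ski −0.069 to 0.0089 with 1 library left out. For G793A PLX3397 against WT controls, Tgfb2 was −0.048 and Smad7 −0.016 on variance-stabilised values. Tgfb2 lay at −0.12 to 0.086 with 1 library left out. For G793A PLX5622 against G793A controls, Tgfb2 was 0.089, Nrros 0.024 and Smad7 −0.15 on variance-stabilised values, Nrros 0.00029 in limma-voom, and Nrros 0.038 and Ski −0.011 without both cerebellar libraries. Tgfbr1 lay at −0.045 to 0.14, Ski −0.017 to 0.059, Nrros −0.087 to 0.049 and Smad3 −0.058 to 0.10 with 1 library left out. For G793A PLX3397 against G793A controls, Tgfb1 was −0.0066 and Smad7 −0.044 on variance-stabilised values. Smad3 lay at −0.049 to 0.10, Tgfb1 −0.016 to 0.12 and Tgfb2 −0.063 to 0.14 with 1 library left out. For PLX5622 against PLX3397 in WT mice, Tgfbr2 was 0.0029 on variance-stabilised values, Tgfbr2 0.00091 with RLE scaling, Tgfbr2 0.00011 with the 1 CPM filter, Tgfbr2 0.00097 in DESeq2, Tgfbr2 0.0027 in the compared groups alone, and Tgfbr2 0.026 without both cerebellar libraries. Smad7 lay at −0.12 to 0.0093, Tgfb3 −0.065 to 0.032, Tgfbr2 −0.052 to 0.026 and Tgfb1 −0.083 to 0.15 with 1 library left out. For PLX5622 against PLX3397 in G793A mice, Tgfb2 was 0.038 on variance-stabilised values, Smad3 0.00050 with RLE scaling, and Smad3 0.047 without both cerebellar libraries. Smad3 lay at −0.071 to 0.047 and Smad7 −0.081 to 0.032 with 1 library left out. For the PLX5622 interaction, Smad7 was −0.10 on variance-stabilised values, and Ski −0.022 without both cerebellar libraries. Ski lay at −0.015 to 0.068 and Itgb8 −0.035 to 0.051 with 1 library left out. For the PLX3397 interaction, Tgfb2 was 0.024 and Smad7 −0.11 on variance-stabilised values, and Tgfb2 0.00013 and Smad3 −0.0040 with the replicate block. Tgfb2 lay at −0.15 to 0.12, Smad3 −0.072 to 0.11 and Smad7 −0.039 to 0.092 with 1 library left out.

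Relative to the markers' median, Tgfb1 differed by 1.91 with PLX5622 (exact p = 0.0571). Leaving out 1 library kept the differences at 1.62 to 2.12 for Tgfb1, 1.41 to 1.78 for Tgfbr1, 2.17 to 2.67 for Tgfbr2 and 2.44 to 2.93 for Nrros with PLX5622, and at 0.91 to 1.02, 1.01 to 1.16, 1.52 to 1.73 and 1.84 to 2.08 with PLX3397. Their smallest possible p is then 0.0667 or 0.1.

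Counts over all genes moved as follows. For G793A PLX3397 against WT controls (1 gene) they were 2 with RLE scaling, without a filter, with the 1 CPM filter and on variance-stabilised values, 26 in DESeq2, 3 in limma-voom, 0 with the replicate block and 0 in the compared groups alone. For G793A PLX5622 against WT controls (0) they were 8 in DESeq2, 1 in limma-voom, 3 in the compared groups alone and 1 on variance-stabilised values. For G793A PLX3397 against G793A controls (1) they were 28 in DESeq2 and 0 in the compared groups alone and on variance-stabilised values, and for G793A PLX5622 (0) 313 in DESeq2. For PLX5622 against PLX3397 in WT mice (0) they were 1 without a filter, 14 in DESeq2 and 6 without the 2 libraries with cerebellar transcripts, and in G793A mice (1) 2 in DESeq2 and 0 in the compared groups alone. The cause of these moves was not tested.

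Leaving out 1 library gave 220 to 278 genes for PLX5622 and 181 to 216 for PLX3397 in WT mice, with 3 of the 10 genes each time. It gave 115 to 144 genes for the PLX5622 interaction and 68 to 93 for PLX3397, with 2 of the 10. It gave 0 to 375 genes for G793A controls against WT controls and 0 to 980 for G793A PLX5622 against G793A controls, both highest without G793A control replicate 2. Elsewhere it gave 0 to 23 (G793A PLX3397 against G793A controls), 0 to 4 and 0 to 1 (G793A PLX3397 and PLX5622 against WT controls), and 0 to 7 and 0 to 1 (PLX5622 against PLX3397 in WT and G793A mice), with 0 of the 10.

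Replicate numbers do not pair the libraries: residuals of libraries that share a number correlated at a median of 0.00553 (55 pairs), and those of other libraries at 0.0015 (165 pairs). With the replicate block 3, 3, 2 and 2 of the 10 genes passed in the WT comparisons and the interactions, as without it. Tgfb1 and Nrros rest on the fewest counts, 59.8 to 188 and 117 to 258 per library.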
